A study of Mus musculus with 8 samples.

Results

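Cytosolic ribosomal protein genes were followed in hearts of C57BL/6 mouse embryos at embryonic day 9.5. Members were chosen by symbol: genes of the deposited count table named Rpl or Rps with a number and at most a short suffix, together with Rplp0, Rplp1, Rplp2 and Rpsa, and without the pseudogenes marked -ps. The rule took 90 of 49315 genes. Of these, 77 are the core genes of the ribosome, 46 of the large subunit and 31 of the small subunit. The other 13 are 8 paralogs with a known partner and 5 further copies (Rpl6l, Rpl32l, Rps3a2, Rps3a3 and Rps12l1), which were set apart after the table was seen. In the GENCODE M21 annotation 84 of the 90 are protein-coding, and Rps4l and the 5 further copies are listed as pseudogenes.

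The series asked how male and female embryonic hearts differ, and holds 4 male and 4 female RNA-seq libraries of total RNA. All embryos shared strain, tissue and age, and no transgene or treatment is named. Sex was read by genotyping the Y-linked gene Sry in other tissue of the same embryos. Whether a library came from 1 heart or from a pool is not stated, and a p-value here reads only the spread among these 8 libraries, which may be technical in part. The strand setting and the handling of multimapping reads were not found in the labels.

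A ribosome is built from a small subunit, which reads the mRNA, and a large subunit, which joins amino acids. Each ribosomal protein is in most cells made from a single gene whose mRNA begins with a run of pyrimidines, the terminal oligopyrimidine tract, through which the growth pathway of mTOR and the binding protein Larp1 control its translation. Cells make these proteins in step with ribosomal RNA, and mammals keep many processed retrocopies of the genes along with a few expressed paralogs that some tissues prefer.

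Start sites of core genes are shown because the tract is the feature that joins the family, and because the genes below lay at opposite ends of the spread described later. RefSeq start windows on GRCm38.p6 were found for 57 of the 77 core genes, with 67 starts in all. The longest unbroken run of C and T on the gene's own strand was sought from 50 bases before to 50 bases after each start, with no base of any other kind allowed. A run of at least 8 was present at 54 of 67 core starts (80.6%), against 35.7% of all 32851 starts in the RefSeq table, and the median longest run was 11 bases at core starts and 7 over all starts. Runs of A and G of the same length, which are the tract read on the opposite strand, were present at 23.9% of core starts and 38.1% of all starts. Capitals mark the run in each window of 30 bases. The first set holds the core genes that were lowest in Male replicate 2 relative to the other male libraries.
Rpl7a (chr2:26910788-26910817, plus strand): cacaaTTCCCTCTTCTTTCTTTCTCCagca
Rpl9 (chr5:65391383-65391412, minus strand): acgaaagacgTTCTCTCTTTgccccatcta
Rps3 (chr7:99483739-99483768, minus strand): cgcaaaacttcaTTTCCCatgcaaaacttc
Rps7 (chr12:28635911-28635940, minus strand): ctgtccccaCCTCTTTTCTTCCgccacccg
Rpl15 (chr14:18270968-18270997, minus strand): gagaaagCCTTCTTCCTTTCCTCTggcggc
The second set holds the 4 with a RefSeq start window among the 5 core genes that were highest there, the fifth being Rpl36.
Rpl41 (chr10:128549119-128549148, minus strand): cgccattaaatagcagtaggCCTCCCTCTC
Rplp2 (chr7:141447636-141447665, plus strand): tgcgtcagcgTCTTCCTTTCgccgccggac
Rps15 (chr10:80292446-80292475, plus strand): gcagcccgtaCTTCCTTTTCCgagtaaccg
Rpl24 (chr16:55966227-55966256, plus strand): acctcaaacccaCTCCCCgccaatgctgta
Runs of 10 to 21 bases stood in 4 of the first 5 windows and runs of 10 or 11 bases in 3 of these last 4. In Rps3 and Rpl24 the longest run within the searched window had 6 bases. The runs of Rpl7a, Rpl15 and Rplp2 began 14, 4 and 5 bases before the RefSeq start and reached across it. Those of Rps7, Rps15, Rpl9 and Rpl41 began 22, 25, 29 and 40 bases after it, and that of Rpl41 ended at the edge of the searched window, so it may be longer. Both sets hold genes with and without a long run, and a match describes these letters in the window, not a tract at the first base of the mRNA.

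Paralogs are told apart from their partners by scattered bases, which the coding sequences of the shortest pairs show. Rpl39, on chromosome X, encodes a small protein of the exit tunnel, and Rpl39l, on chromosome 16, is its paralog known from the testis. The coding sequences (GENCODE M21, without the stop codon) differ at 23 of 153 positions, marked by capitals.
Rpl39l (chr16:10170226-10174911, plus strand): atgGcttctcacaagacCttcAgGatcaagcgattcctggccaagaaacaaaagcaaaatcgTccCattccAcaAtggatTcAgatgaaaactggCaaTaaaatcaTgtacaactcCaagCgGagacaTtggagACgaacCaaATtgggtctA
Rpl39 (chrX:37082520-37085402, minus strand): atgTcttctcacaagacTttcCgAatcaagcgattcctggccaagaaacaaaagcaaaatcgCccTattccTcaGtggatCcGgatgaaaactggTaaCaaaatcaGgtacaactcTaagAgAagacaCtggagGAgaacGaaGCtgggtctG
Rps27l and Rps27, of the small subunit, differ at 60 of 252 coding positions.
Rps27l (chr9:66946086-66949516, plus strand): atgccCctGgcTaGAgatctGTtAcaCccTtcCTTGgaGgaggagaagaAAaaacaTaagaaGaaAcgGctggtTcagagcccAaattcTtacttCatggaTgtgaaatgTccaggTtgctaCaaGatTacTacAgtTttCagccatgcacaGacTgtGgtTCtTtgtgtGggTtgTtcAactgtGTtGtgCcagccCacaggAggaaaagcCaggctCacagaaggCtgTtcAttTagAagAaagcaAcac
Rps27 (chr3:90212522-90213651, minus strand): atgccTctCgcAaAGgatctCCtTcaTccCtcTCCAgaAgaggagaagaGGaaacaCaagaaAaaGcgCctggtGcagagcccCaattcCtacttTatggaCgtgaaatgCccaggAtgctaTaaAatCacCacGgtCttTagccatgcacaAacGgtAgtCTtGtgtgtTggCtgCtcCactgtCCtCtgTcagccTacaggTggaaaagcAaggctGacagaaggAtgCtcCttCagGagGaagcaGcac
Positions in these lines are those of the whole genes, as the deposited tables give them on GRCm38. Retrocopies are a wider limit: over the core genes, a median of 56.6% of the 50-base windows of a gene's transcripts also occur in a transcript of another gene (range 0% to 98.7%), with more than 50% shared in 47 of 77. Where such reads were split or dropped, counts of the affected genes are uncertain.

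Total counts ranged from 20105913 to 51134291 per library. Replicates differed by more than sampling noise in every pair, by a chi-square of 7.93 to 192 per gene, and the largest values involved Male replicate 2. All 16 heart muscle markers were detected, with summed levels of 48222 to 76820 CPM in male libraries and 44028 to 55814 CPM in female libraries. CPM is a gene's count scaled by the library total and a TMM factor, so CPM do not add up to the same total in each library. Over all tested genes they summed to 1157860 in Male replicate 2 and 934452 in Female replicate 4. In bulk RNA, fewer cells of a type and less RNA per cell cannot be told apart.

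Ribosomal protein mRNAs were among the most abundant in the embryonic heart. The 90 members took 8.14%, 12.5%, 8.24% and 9.14% of all counts in Male replicates 1 to 4, and 10.3%, 9.46%, 10.02% and 7.56% in Female replicates 1 to 4. Male replicate 2 was the highest and Female replicate 4 the lowest of the 8, and the sexes overlapped. The share averaged 9.498% ± 2.04 in males and 9.34% ± 1.24 in females (SD, n = 4 each), a difference of 0.162 percentage points that lies within the spread of both groups. Without Male replicate 2 the difference was -0.832 percentage points. The paralogs and further copies together took 0.0966% to 0.123% of counts, and the 280 genes marked -ps between 0.0150% and 0.0367%.

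Per length of mRNA, 57 of the 100 protein-coding genes with the highest levels were core ribosomal protein genes, and 75 were within the top 200. Levels per length are given as RPKM, CPM per kilobase of the shortest principal transcript of GENCODE M21. The middle 50% of the core genes lay between 1095 and 1848 RPKM around a median of 1486 RPKM.

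**Figure D1:**
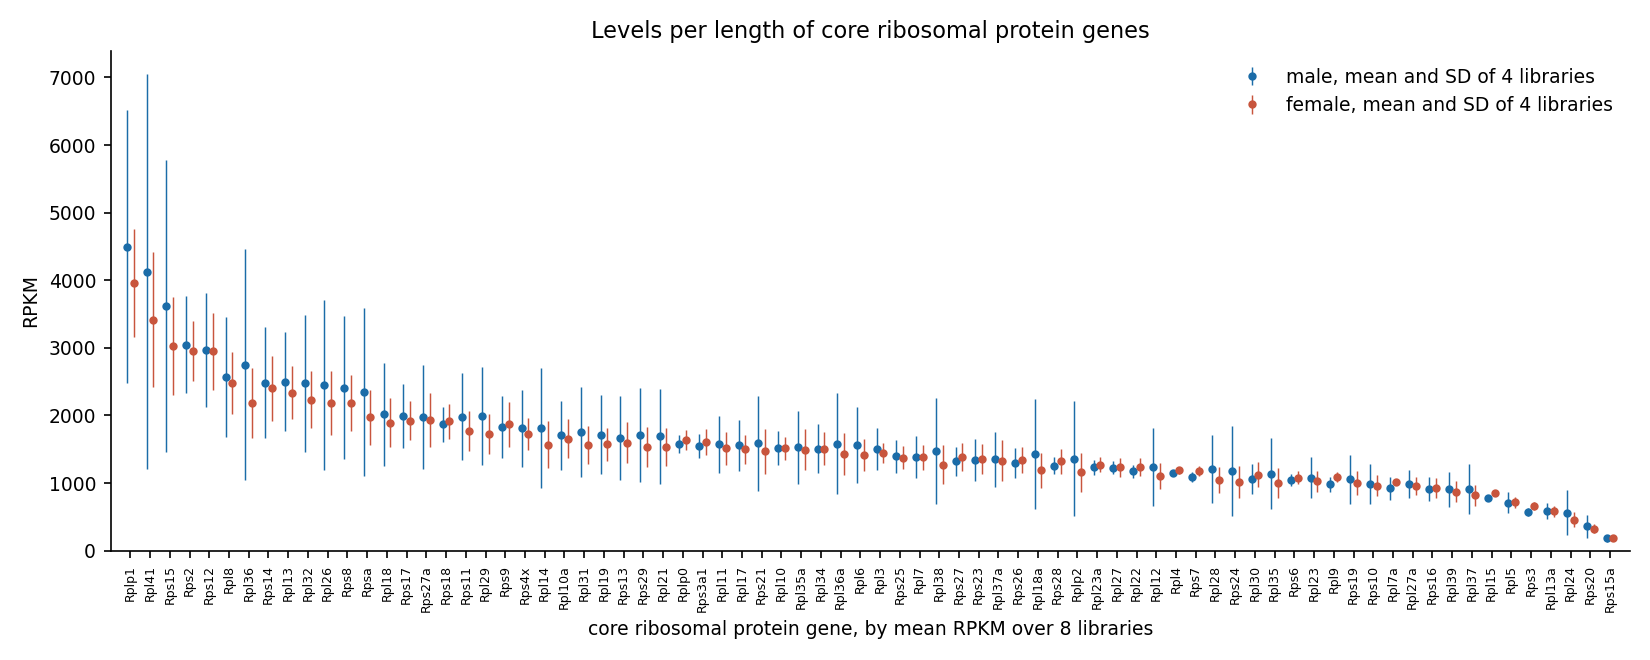
RPKM of 76 of the 77 core ribosomal protein genes, ordered along the horizontal axis by mean over 8 libraries; points are means and lines are SDs of 4 male (blue, left of each pair) and 4 female (red) libraries. Rplp1 and Rpl41 stand at the upper end and Rps15a at the lower end, and the male SD is wide for Rpl41 and narrow for Rpl15.

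The stalk of the large subunit, which calls elongation factors to the ribosome, is built from Rplp0 at its base and pairs of Rplp1 and Rplp2. Rplp1 had the highest level of all core genes, 4499 ± 2015 RPKM in males and 3958 ± 800 RPKM in females (SD, n = 4 each). Its partner Rplp2 had 1361 ± 846 RPKM in males and 1158 ± 284 RPKM in females, and Rplp0 had 1578 ± 134 RPKM in males and 1636 ± 148 RPKM in females. In CPM, Rplp0 was at 1975, 2400, 2087 and 2108 in Male replicates 1 to 4 and at 2336, 2204, 2401 and 1946 in Female replicates 1 to 4. Rplp2 was at 833, 2528, 857 and 1028 CPM in the same male libraries and at 1318, 1214, 1223 and 713 CPM in the female ones. Male replicate 2 thus stood far above the other males in Rplp2 and only a little above them in Rplp0, so that the 3 stalk mRNAs were not in 1 ratio across libraries.

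Outside the stalk, the paralog pairs and chromosome X, the highest levels belonged to Rpl41 (3771 RPKM over 8 libraries), whose protein is the smallest of the ribosome, then Rps15 (3320 RPKM), Rps2 (3001 RPKM), Rps12 (2959 RPKM) and Rpl8 (2525 RPKM), a core protein of the large subunit near the peptidyl transferase centre. Neighbours in this order overlapped within their SDs. Rpl41 had 4127 ± 2923 RPKM in males and 3415 ± 1001 RPKM in females, and Rps15 had 3618 ± 2166 RPKM in males and 3023 ± 725 RPKM in females. These SDs run over libraries that the genes share, so they do not test the order. Among members with at least 1 CPM in 4 libraries, the lowest were the copies Rpl6l and Rps3a2, at 4.87 and 4.89 RPKM, followed by Rps15a (183 RPKM), Rps20 (340 RPKM) and Rpl24 (511 RPKM). For Rps15a and Rps20 the annotated transcripts are long, 5130 and 3706 bases, which lowers a value per kilobase. Read against the exonic length of the deposited tables instead, 3 of the 5 highest core genes were the same, and Rps15a was again the lowest, with 149 RPKM.

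No ribosomal protein gene passed the test between male and female hearts. Of 16377 genes tested with edgeR, 6 (0.0366%) had an adjusted p below 0.05, all of them outside the family. None of the 87 members that passed the filter on low counts did, and none had an unadjusted p below 0.05, against 2.24% of all tested genes. DESeq2 and limma-voom called 9 and 7 genes in all, and 0 members in each. The median log2 fold change, male minus female, was 0.045 over the 87 members and 0.011 over all tested genes, with 60 members higher and 27 lower in males; 8666 of all tested genes were higher and 7711 lower. This small shift turned to -0.17 without Male replicate 2. Log2 fold changes of the core genes lay between -0.20 and 0.33, with standard errors of 0.092 to 0.42 (median 0.21), so differences of the size of these errors were not detectable with 4 libraries a group.

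The smallest p belonged to Rps3, a protein at the entry of the mRNA channel. It had 1135, 926, 1158 and 1156 CPM in Male replicates 1 to 4, against 1369, 1204, 1344 and 1114 CPM in Female replicates 1 to 4, a log2 fold change of -0.20 ± 0.12 (SE, edgeR adjusted p = 1.00). The ranges overlapped. Rpl9 (-0.15 ± 0.12) and Rpl15 (-0.12 ± 0.092) followed on that side among core genes. Upward, the smallest p values were those of Rpl36 (0.33 ± 0.37), Rpl29 (0.21 ± 0.24), Rpl24 (0.30 ± 0.36) and Rpl28 (0.22 ± 0.27), each with an edgeR adjusted p of 1.00. Each of these 4 values took the opposite sign without Male replicate 2, with -0.20 for Rpl36, -0.075 for Rpl29, -0.20 for Rpl24 and -0.11 for Rpl28. In CPM the 4 male and the 4 female libraries did not overlap for 0 of the 77 core genes and for 2.25% of all tested genes.

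The X-linked members had values as close. Rps4x, which in mouse has no Y-linked copy, had 1417, 2576, 1437 and 1622 CPM in Male replicates 1 to 4 and 1811, 1788, 1794 and 1330 CPM in Female replicates 1 to 4. The log2 fold changes, male minus female, were 0.069 ± 0.21 for Rps4x, 0.0087 ± 0.14 for Rpl10, whose protein joins the large subunit late in its assembly, 0.15 ± 0.30 for Rpl36a and 0.051 ± 0.21 for Rpl39, each with an edgeR adjusted p of 1.00. All 4 turned negative without Male replicate 2, with -0.17, -0.11, -0.23 and -0.16 in the same order. Without Female replicate 4, Rps4x (-0.027), Rpl10 (-0.065) and Rpl39 (-0.069) turned negative as well.

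Differences between libraries were shared by nearly the whole family. For each library, the offset is the median over the 77 core genes of log2 CPM minus the gene's own mean over 8 libraries. It was -0.25, 0.58, -0.22 and -0.037 in Male replicates 1 to 4 and 0.15, 0.046, 0.14 and -0.40 in Female replicates 1 to 4. Over all tested genes the same median stayed between -0.014 and 0.011. Of the 77 core genes, 1, 72, 3 and 13 were above their own mean in Male replicates 1 to 4. The counts were 73, 72, 77 and 1 in Female replicates 1 to 4. The part of sex in these offsets was not tested. Core genes of the small subunit had offsets of 0.54 in Male replicate 2 and -0.38 in Female replicate 4, those of the large subunit without the stalk 0.59 and -0.44, and the 3 stalk genes 0.88 and -0.53. Removing the offset lowered the median SD of a core gene over libraries to 0.11 on the log2 scale, against 0.31 with it; the mitochondrial ribosomal protein genes went to 0.13 in the same way, against 0.19. The median SD over all tested genes was 0.24, and their offsets, which TMM holds near 0, could not lower it. The 78 mitochondrial ribosomal protein genes, whose products serve the ribosome of that organelle, had offsets with the same sign in 7 of the 8 libraries but smaller, 0.30 in Male replicate 2 and -0.22 in Female replicate 4.

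**Figure D2:**
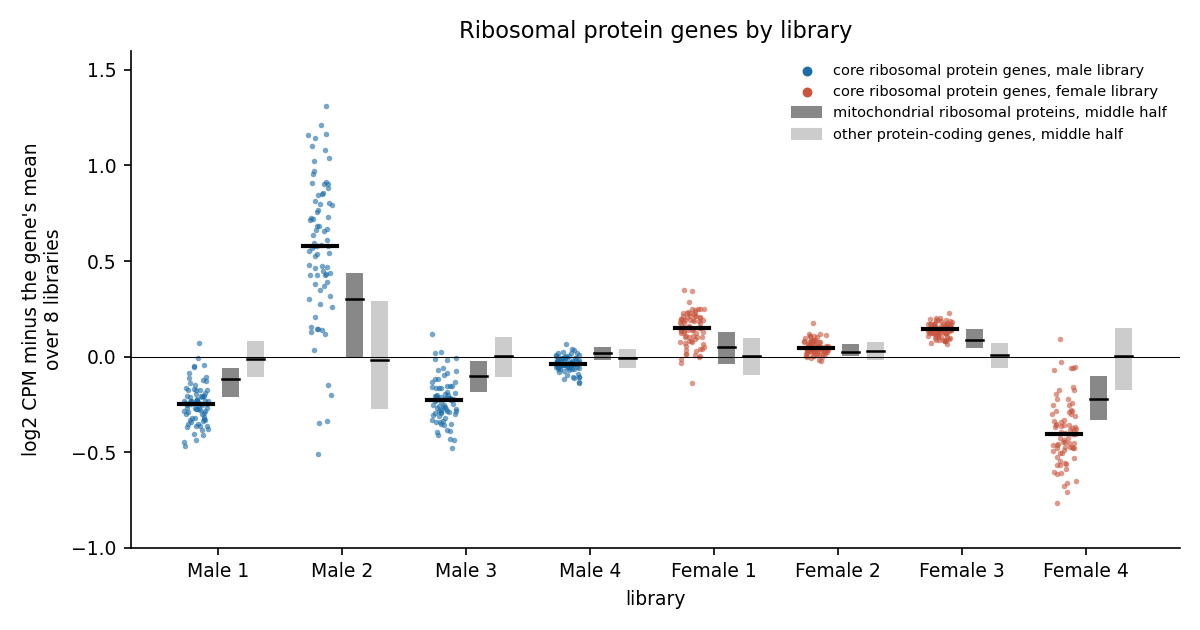
Log2 CPM minus the gene's own mean over 8 libraries, for the 77 core ribosomal protein genes (points, with the median as a bar) in 4 male (blue) and 4 female (red) libraries; grey boxes hold the middle 50% of 78 mitochondrial ribosomal protein genes (dark) and 5449 other protein-coding genes (light), with their medians. Core genes centre on 0.58 in Male replicate 2 and on -0.40 in Female replicate 4, and spread widely in both, while in Male replicate 4 and Female replicate 2 they lie close together.

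Male replicate 2 and Female replicate 4 lay at opposite ends, and the genes kept their order there in mirror image. Both libraries were singled out after their values were seen. Male replicate 2 exceeded the mean of Male replicates 1, 3 and 4 in 72 of 77 core genes, with a median of 0.76 on the log2 scale. Female replicate 4 was below the mean of Female replicates 1, 2 and 3 in 76 of 77, with a median of -0.52. The 2 differences share no library, and across the 77 genes Pearson's r was -0.95 and Spearman's rho -0.94. Among 5449 other protein-coding genes with a mean of at least 5 on the log2 CPM scale the values were -0.88 and -0.87, so the axis also ran through the rest of the transcriptome. Genes of 1 library share its depth and preparation, and these coefficients describe 2 libraries. Other protein-coding genes were centred on it, with medians of -0.0070 and -0.0072, where TMM scaling holds them near 0. Core ribosomal protein genes sat almost entirely on its upper side in Male replicate 2. With library size alone, the offsets of other genes were -0.23 in Male replicate 2 and 0.099 in Female replicate 4. Those of core genes were then 0.37 and -0.31, with 64 of 77 above their own mean in Male replicate 2.

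**Figure D3:**
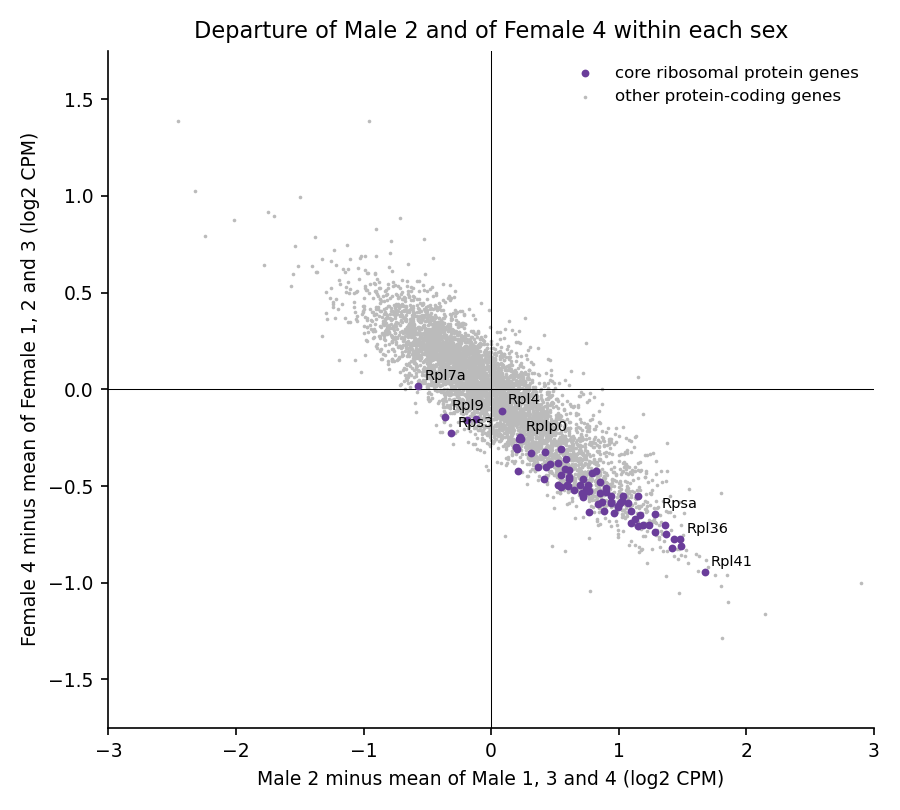
Each point is a gene: the horizontal axis gives Male replicate 2 minus the mean of the other 3 male libraries, the vertical axis Female replicate 4 minus the mean of the other 3 female libraries, both in log2 CPM. The 77 core ribosomal protein genes (purple) run from Rpl7a at the left to Rpl41 at the lower right, along the band of 5449 other genes (grey). Of the 77, 72 lie to the right of 0 and below 0, and Rpl7a lies to the left of 0.

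The family did not move as a block in Male replicate 2. Rpl41 had 1343, 4617, 1333 and 1686 CPM in Male replicates 1 to 4, against 2358, 1888, 2092 and 1094 CPM in Female replicates 1 to 4. At the other end Rpl7a, a large-subunit protein whose gene carries snoRNAs in its introns, had 924, 619, 956 and 881 CPM in those male libraries, against 925, 903, 959 and 939 CPM in the female ones. Male replicate 2 was thus the highest library for Rpl41 and the lowest for Rpl7a. Rpsa, the small-subunit protein also known as the laminin receptor, had 2533, 6706, 2572 and 3189 CPM in males and 3574, 3269, 3549 and 2212 CPM in females. Rpl9, Rps3, Rps7 and Rpl15 joined Rpl7a as the 5 core genes below the other males, and 21 of 77 were above them by more than 1 on the log2 scale. The ratio of Male replicate 2 to Female replicate 4 ran from 0.659 for Rpl7a through a median of 1.98 to 4.22 for Rpl41.

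The proportions among members varied less in the remaining libraries. The SD over core genes of the log2 difference between 2 libraries was 0.041 to 0.11 in the 3 pairs of Male replicates 1, 3 and 4, and 0.058 to 0.10 in the 3 pairs of Female replicates 1 to 3. It was 0.47 between Male replicates 2 and 1 and 0.22 between Female replicates 4 and 1. The summed RPKM of the small subunit over that of the large subunit was 0.720, 0.662, 0.718 and 0.707 in Male replicates 1 to 4 and 0.725, 0.710, 0.715 and 0.725 in Female replicates 1 to 4, with Male replicate 2 lowest.

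Features that the choice of genes did not use were set beside the library departures. Core ribosomal protein genes with mRNAs of at most 450 bases had a median deviation of 0.82 in Male replicate 2 and -0.52 in Female replicate 4 (6 genes); those of 600 to 800 bases had 0.59 and -0.40 (18 genes), and those of 1500 to 2500 bases 0.42 and -0.25 (5 genes). Other protein-coding genes of the same lengths had 0.83 and -0.57 (18 genes), 0.46 and -0.34 (142 genes), and -0.021 and -0.024 (1309 genes). Up to 600 bases the medians of both kinds of gene were close, and from 600 to 2500 bases those of the core genes were further from 0 in each bin. By coding length the shortest genes were not alike: with at most 300 coding bases the medians were 0.80 and -0.50 for core genes (9 genes) and 0.37 and -0.29 for others (149 genes), and with 300 to 450 coding bases 0.66 and -0.43 (27 genes) and 0.24 and -0.21 (305 genes). Across the 77 core genes, the departure of Male replicate 2 from the other males had a Spearman's rho of -0.093 with mRNA length (-0.24 across the 5449 other genes), -0.32 with coding length, 0.31 with GC content, -0.19 with the share of 50-base windows found elsewhere and -0.14 with the number of snoRNAs hosted. For Female replicate 4 against the other females, rho was 0.23 with mRNA length (0.44 across the other genes) and 0.48 with coding length. With GC content, shared windows and snoRNAs hosted it was -0.24, 0.23 and 0.22. These genes share libraries, and the coefficients are descriptions.

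**Figure D4:**
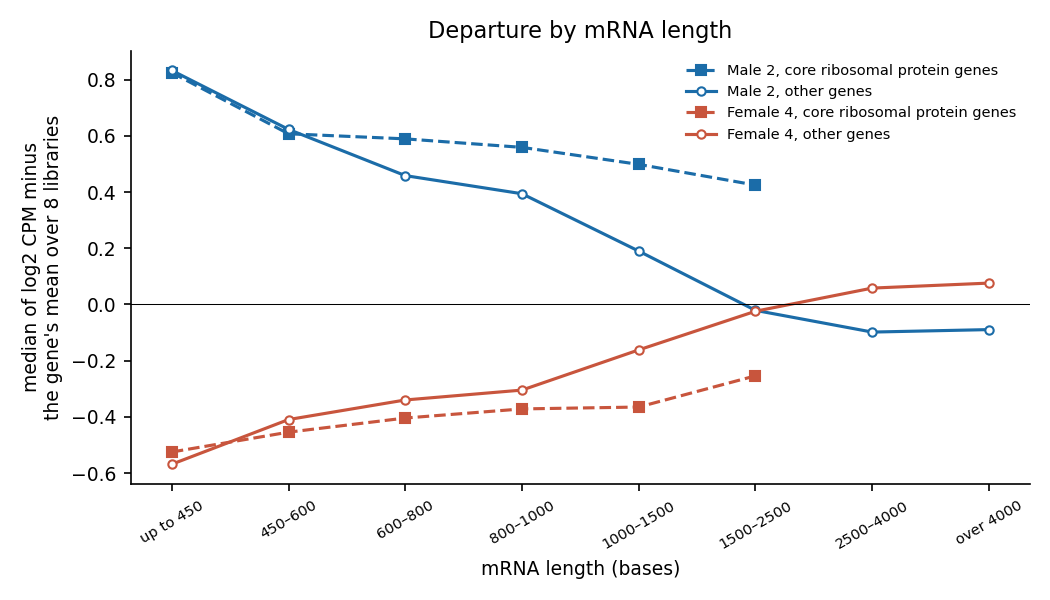
Median over genes of log2 CPM minus the gene's own mean over 8 libraries, by mRNA length in bases, in Male replicate 2 (blue) and Female replicate 4 (red), for core ribosomal protein genes (squares, dashed lines, bins with at least 5 core genes) and other protein-coding genes (open circles, solid lines). Core genes are at 0.82 and -0.52 in the shortest bin and still at 0.42 and -0.25 in the bin from 1500 to 2500 bases, where the other genes, at 0.83 and -0.57 in the shortest bin, lie near 0.

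Other measures moved with these libraries. The mitochondrial genome took 0.707% of counts in Male replicate 2 and 1.72% in Female replicate 4, the extremes of the 8, with 0.999% to 1.58% in the others. The median deviation of the 16 heart muscle markers was 0.48 in Male replicate 2 and -0.29 in Female replicate 4. That of 15 foregut and pharynx markers, neighbours of the heart tube, was 0.85 in Male replicate 2 and -0.37 in Female replicate 4. It was 1.91 in Female replicate 1 and 0.49 in Female replicate 3, where the offsets of core ribosomal protein genes were 0.15 and 0.14. In Male replicates 1, 3 and 4 and Female replicate 2 it was -0.73, -0.61, -0.46 and -0.52. Summed over the list, these markers reached 322 to 698 CPM in males and 324 to 585 CPM in females, with 0 of 15 at 0. The 13 primitive erythroid markers, with sums of 6484 to 9954 CPM in males and 4779 to 12654 CPM in females and none at 0, were highest in Female replicate 3 and Male replicate 3, with deviations of 0.76 and 0.57, against -0.24 in Male replicate 2 and -0.0084 in Female replicate 4. The 12 hepatic and yolk sac markers had sums of 11.9 to 49.4 CPM in males and 9.93 to 101 CPM in females. Of these markers, 0 of 12 were at 0. The 9 that passed the filter deviated by 0.91 in Male replicate 2, 2.59 in Female replicate 1 and -0.85 in Female replicate 4. Other lists had the opposite signs. The 6 epicardium markers deviated by -0.48 in Male replicate 2 and 0.43 in Female replicate 4, the 12 endocardium and endothelium markers by -0.14 and 0.16. These lists varied in other libraries as well. The epicardium markers were at 0.54 and 0.37 in Male replicates 3 and 4. They were at -0.35 in Male replicate 1 and at -0.37 and -0.36 in Female replicates 1 and 2. The endocardium and endothelium markers were at -0.13 in Female replicate 1 and 0.11 in Male replicate 3. The part of these markers in the offsets was not tested.

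In the 6 libraries without Male replicate 2 and Female replicate 4, male hearts had the lower levels. The offsets were then -0.22, -0.21 and -0.013 in Male replicates 1, 3 and 4, and 0.18, 0.079 and 0.17 in Female replicates 1 to 3. All 86 members tested there were lower in males. The median of the log2 fold changes was -0.29 in the core genes and 0.010 in all tested genes. At an unadjusted p below 0.05 there were 72 of 86, against 18.3% of all tested genes, and after adjustment 1, Rplp2 (-0.47 ± 0.091, edgeR adjusted p = 0.0486), against 0.298% of all tested genes. This omission took out the male library with the highest and the female library with the lowest level of these genes, so it pushed the difference this way by construction, and it is no measure of a sex difference.

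Genes working with the ribosome followed the family to different degrees. Fau encodes a fusion that is cut to release a ribosomal protein, and Rack1 is a scaffold on the small subunit. Fau averaged 1272 ± 814 CPM in males and 1045 ± 263 CPM in females, and Rack1 1592 ± 275 CPM in males and 1562 ± 156 CPM in females (SD, n = 4 each). Fau was at 2483 CPM in Male replicate 2 and 658 CPM in Female replicate 4, and Rack1 at 1999 CPM and 1334 CPM. The 20 translation genes listed for a pyrimidine tract include the elongation factors Eef1a1 and Eef2. They had a median departure of 0.32 in Male replicate 2 from the other males and of -0.15 in Female replicate 4 from the other females. In Male replicate 2, 12 of 20 were above the other males, beside 7911 of all 16377 tested genes. In Female replicate 4, 14 of 20 were below the other females, beside 8023 of all tested genes. Eef1a1 was at 6783 CPM in Male replicate 2, a departure of -0.199 from the other males. It was at 8222 CPM in Female replicate 4, a departure of 0.007 from the other females. The 56 genes of ribosome biogenesis that were found, such as Ncl, which encodes nucleolin, had medians of 0.064 and -0.11, and 19 growth-control genes, Larp1 among them, had -0.13 and 0.076. Larp1 itself had 590 CPM in Male replicate 2 and 271 CPM in Female replicate 4. None of the genes in these 3 lists, nor of the 20 other initiation and elongation factors or the 78 mitochondrial ribosomal protein genes, was called between male and female hearts. The medians of their log2 fold changes, male minus female, were -0.037, -0.046, -0.021, -0.037 and 0.032 in the order of these 5 lists, beside 0.011 over all tested genes.

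Among the paralogs, those known for expression in many tissues were present and those known from the germ line were at or near 0. Rpl36al, a retrogene copy of the X-linked Rpl36a, supplied 32.2% of the pair's summed RPKM over the 8 libraries. It had 307, 497, 317 and 346 CPM in Male replicates 1 to 4 and 387, 379, 403 and 273 CPM in Female replicates 1 to 4. Rpl22l1, which in mouse cells can stand in for Rpl22, supplied 25.2%, with 193, 294, 202 and 201 CPM in males and 260, 235, 246 and 173 CPM in females. Rps27l, a target of the p53 pathway, supplied 24.3%, with 180, 300, 188 and 216 CPM in males and 239, 230, 235 and 161 CPM in females. For Rps4l, listed as a pseudogene, the share beside Rps4x was 8.85%, and for Rpl7l1 beside Rpl7 it was 4.02%. Rpl7l1 was the 1 of 87 tested members whose sexes did not overlap, as in 2.25% of all tested genes, with 141, 143, 146 and 141 CPM in males against 149, 155, 158 and 148 CPM in females, a log2 fold change of -0.095 ± 0.070 (edgeR adjusted p = 1.00).

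Rpl3l, which replaces Rpl3 in adult heart and skeletal muscle, was scarce in the embryonic heart. It had 29, 47, 24 and 36 counts in Male replicates 1 to 4 and 48, 78, 29 and 43 counts in Female replicates 1 to 4, which is 1.15 ± 0.17 CPM in males and 1.28 ± 0.35 CPM in females. Rpl3 had 1747 to 2655 CPM in males and 1654 to 2109 CPM in females, so Rpl3l supplied 0.0599% of the pair (0.0467% to 0.0755%). None of its 50-base windows occurs in another gene. Rpl39l had 3, 6, 1 and 9 counts in males and 3, 6, 2 and 2 in females, or 0.0165% of its pair, and the base differences printed above separate it from Rpl39. Rpl10l, a retrogene of Rpl10 that acts in male germ cells, and the copy Rps12l1 had 0 counts in all 8 libraries; every 50-base window of Rps12l1 also occurs in another gene. The copies Rpl32l and Rps3a3 were below 1 CPM in every library, with 7 to 15 and 9 to 19 counts in males and 8 to 25 and 11 to 31 counts in females, and 35.4% and 65.1% of their windows occur elsewhere.

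**Figure D5:**
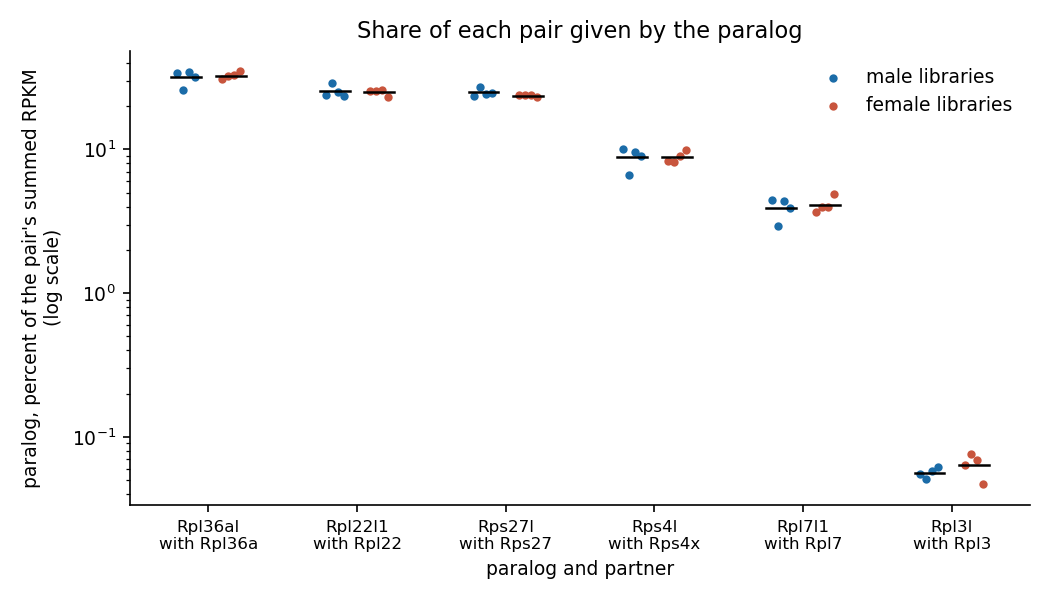
Percent of each pair's summed RPKM given by the paralog, on a log axis, in 4 male (blue, left) and 4 female (red) libraries, with bars at the means, for the 6 pairs with enough counts. The shares run from 32.2% for Rpl36al to 0.0599% for Rpl3l, and the sexes overlap in every pair.

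No difference between the sexes in the log2 count ratio of paralog to partner passed an exact 2-sided permutation test in the 6 pairs tested, where 70 divisions of the libraries allow no p below 0.0286. The largest gap in units of its spread was that of Rps27l to Rps27, with log2 ratios of -1.06 ± 0.11 in males and -1.15 ± 0.039 in females (SD, n = 4 each; exact p = 0.114, adjusted over 6 pairs 0.686). For Rpl3l to Rpl3 the ratios were -10.75 ± 0.12 in males and -10.60 ± 0.30 in females (exact permutation p = 0.400, adjusted 0.914). Rpl7l1, Rpl22l1, Rpl36al and Rps4l had differences, male minus female, of -0.084, 0.029, -0.068 and -0.019, each with an adjusted exact permutation p of 0.914, and each changed sign without Male replicate 2.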

How the data were processed

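The authors deposited whole-number counts per gene, 1 table per library, and a series table that holds the same values. They also deposited a normalized signal, which equals the counts divided by 1 factor per library for 16460 genes and served only as an alternative. GRCm38 was the build per the submitters' processing notes, which name featureCounts (Subread 1.5.2), STAR 2.5.2b and Trimmomatic 0.36 but no annotation release. Symbols were found for 48970 of 49315 identifiers. Counts were tested for male minus female over all 8 libraries, with no covariate, with the robust quasi-likelihood test of edgeR 4.0.16 under R 4.3.3 (2-sided; TMM factors; genes kept by filterByExpr at a minimum count of 10; Benjamini-Hochberg adjustment over the 16377 genes kept; calls below 0.05). CPM for deviations was log2-scaled with a prior count of 2, and paralog ratios took a pseudocount of 0.5. Fold changes carry standard errors. Intervals of counting error are not given for CPM, since the spread between libraries exceeds them. Alternatives were DESeq2 1.42.0, limma-voom of limma 3.58.1, RLE factors, library size alone, other filters, a replicate block, limma on the authors' normalized signal and the omission of each library; the length used for RPKM and the joint omission of Male replicate 2 and Female replicate 4 were chosen after seeing the data.

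The members, the gene lists and the rule for naming genes were chosen with earlier results of these data known. The rule names the stalk genes, paralogs with partners, X-linked members, the 5 other members with the highest and the lowest mean RPKM, members below 1 CPM everywhere, the 4 tested members with the smallest p in each direction, and the called members and the 2 most abundant of other lists, of which only some are named. Rpl7a, Rps7 and Rpsa, and others named for their place in Male replicate 2, were chosen after their values were seen. Results by name of 1 member and of 1 gene listed beside the family are not reported here.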

Additional observations from a re-analysis of the deposited data

Results flagged for a closer look

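In 92 groups of 4 libraries, Dixon's ratio of the gap to the range was compared with its critical value for 4 samples, which chance passes in about 1 of 20 groups, and 17 groups passed. Of these, 12 involved Male replicate 2. It was far above the other males in CPM of Rpl41 (4617, others 1333 to 1686), Rplp1 (3734), Rps15 (3413), Rpl8 (3305), Rplp2 (2528), Rps20 (2269), Rpl36 (2025), Rpl36a (1299), Rpl24 (717) and Rpl22l1 (294). It was below them in CPM of Rps3 (926, others 1135 to 1158) and Rpl9 (597, others 754 to 772). The other 5 involved Female replicate 4, which was below the other females in CPM of Rps4x (1330, others 1788 to 1811), Rpl7 (1287), Rpl39 (394) and Rps27l (161), and in the log2 ratio of Rpl22l1 to Rpl22 (-1.52, others -1.33 to -1.31). These genes are read from the same libraries, so the flags are not independent of each other. Some of the genes, such as those with the smallest p, were also named for their values in these libraries. The rate of 1 in 20 is therefore no expectation for these groups, and no rate over all tested genes is set beside it.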

How the results depend on the processing

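Of the named member fold changes, none of 17 passed an adjusted p of 0.05 under any of 16 alternatives (lowest adjusted p 0.835). The count of genes called was 6, and 5 to 9 under the 8 alternative fits; members called were 0 in each. The median fold change of members was 0.045 (log2), between -0.0062 (library size alone) and 0.057 (a filter at 1 CPM in 4 libraries) in those fits, and -0.17 to 0.13 when 1 library was left out. The range of library offsets, 0.98, was 1.01 with RLE factors, 0.67 with library size alone and 1.03 over the 19 core genes with no -ps pseudogene of their name. With both Male replicate 2 and Female replicate 4 left out, 48 genes and 1 member were called, the members' median was -0.29, and the share of counts differed by -1.43 percentage points (0.162 with all libraries, -0.832 to 0.615 with 1 library left out).

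Same-numbered male and female libraries did not deviate together, with correlations of -0.42, -0.075, -0.33 and -0.0062. Differently numbered pairs reached -0.74 (Male replicate 2 with Female replicate 4) and 0.68 (Male replicate 3 with Female replicate 4). Departures of that size could hide a pairing by number, so these correlations cannot exclude one. A replicate block gave 5 calls, 0 members and a median of 0.020.

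No value that changed sign had passed the test. With library size alone, values of the opposite sign were -0.033 for Rpl10, -0.024 for Rpl36al, -0.015 for Rps27l and -0.020 for Rps4l; with limma-voom -0.0095 for Rpl10 and -0.0071 for Rpl36al; with no filter -0.014 for Rpl10 and -0.0064 for Rps4l. The cause was not tested. With 1 library left out, log2 fold changes ranged from -0.11 to 0.073 for Rpl10, -0.20 to 0.036 for Rpl22l1, -0.20 to 0.46 for Rpl24, -0.11 to 0.34 for Rpl28, -0.075 to 0.32 for Rpl29, -0.20 to 0.50 for Rpl36, -0.23 to 0.28 for Rpl36a, -0.16 to 0.0997 for Rpl36al, -0.16 to 0.14 for Rpl39, -0.15 to 0.12 for Rps27l, -0.044 to 0.067 for Rps4l and -0.17 to 0.16 for Rps4x. Male minus female differences in the log2 ratio to the partner ranged from -0.061 to 0.080 for Rpl22l1 and -0.13 to 0.065 for Rpl36al. Those for Rpl7l1 ranged from -0.16 to 0.058 and those for Rps4l from -0.096 to 0.12. Depth does not limit the core genes, each with at least 5544 counts in every library; it limits Rpl3l, Rpl39l, Rpl32l and Rps3a3.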
